A study of Mus musculus with 12 samples.

Results

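Genes that make cholesterol, sense it and send it out of the cell were followed in airway eosinophils of mice. There were 28 of them, chosen by symbol from a list that runs from the first enzymes of the pathway to the cholesterol exporters, and all 28 were found among the 39666 genes of the count table. RNA came from eosinophils of C57BL/6 wild-type mice aged 8 to 12 weeks with allergic airway inflammation. Every mouse had been sensitized on days 0 and 7 (20 µg ovalbumin in 4 mg alum) and challenged on days 16 to 18 with a 1% ovalbumin aerosol, 40 minutes each day. Lavage was on day 19, and no group went untreated. Lung lavage fluid was pooled over mice. Each of 6 pools was sorted by flow cytometry into eosinophils with TREM-1, an activating receptor of myeloid cells, on their surface (TREM-1+) and eosinophils without it (TREM-1-), giving 12 libraries, 6 per fraction. The labels do not say how many mice made up a pool or whether the 6 lavages differed in any way.

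Cells build cholesterol from acetyl-CoA by way of mevalonate, isoprenoid units, squalene and lanosterol. When membranes of the endoplasmic reticulum are poor in sterol, SCAP escorts SREBP proteins to the Golgi, where they are cut and released to switch on the enzymes of synthesis; INSIG proteins hold SCAP back when sterol is plentiful. Oxysterols, which build up when cholesterol is plentiful, activate the nuclear receptors LXRα and LXRβ, and these raise the exporters ABCA1 and ABCG1 and the ubiquitin ligase MYLIP, which removes lipoprotein receptors from the surface. In the text below, SREBP-type genes are the enzymes of the list together with Insig1 and Stard4 (19 genes), and LXR-type genes are Abca1, Abcg1 and Mylip (3 genes).

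Promoters are shown first because the SREBP-type genes varied together between lavages. RefSeq promoter windows (GRCm38.p6, 250 bases before to 50 after a start site) were at hand for 23 of the 28 genes and for 15 of the 19 SREBP-type genes. The letters CCAAT, the box bound by NF-Y, a factor that acts together with SREBP, were found on either strand in 14 of these 15 genes, against 11096 of 27025 genes in the table (41.1%). These letters did not mark only genes that varied together. They were also found in Mylip, which was lowest in lavages 1 and 2. Insig2 and Srebf1 held them too, as did Pmvk and Mvd among the 14, and none of these 4 differed among lavages by the test below. The sterol element TCACNCCAC was found in 1 of the 15, Hmgcs1, against 1.44% of all genes, and the E-box CACGTG, which SREBP can also bind, in 4 of 15 against 8.09%. A strict LXR element, a direct repeat of AGGTCA with 4 bases between, was found in 0 of the 23 genes and in 0.0148% of all genes. Both strands were searched and each gene was counted once over all its start sites. None of these letter strings contains another. Only exact matches were counted, so a site spelled with other letters was missed. Lack of a match therefore does not show that a gene lacks a site. The 250 bases upstream of the start site are given here for 4 genes on which the results turn, 5′ to 3′ on the strand of the gene, with matches to any of these motifs in capitals. Hmgcs1 (chr13:119690101-119690350, plus strand) holds the sterol element at positions -137 to -129 before the start site and 3 of its CCAAT matches, read as ATTGG on the strand shown. Idi1 (chr13:8885356-8885605, plus strand) had the widest range between lavages, Cyp51 (chr5:4104698-4104947, minus strand) the smallest p between the fractions, and Abca1 (chr4:53159896-53160145, minus strand) went against the enzymes and holds an E-box at -147 to -142.
Hmgcs1: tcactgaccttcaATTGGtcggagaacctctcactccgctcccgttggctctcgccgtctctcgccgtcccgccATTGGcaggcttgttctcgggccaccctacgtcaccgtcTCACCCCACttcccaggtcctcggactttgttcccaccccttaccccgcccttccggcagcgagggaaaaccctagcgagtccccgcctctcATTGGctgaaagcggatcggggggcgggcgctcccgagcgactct
Idi1: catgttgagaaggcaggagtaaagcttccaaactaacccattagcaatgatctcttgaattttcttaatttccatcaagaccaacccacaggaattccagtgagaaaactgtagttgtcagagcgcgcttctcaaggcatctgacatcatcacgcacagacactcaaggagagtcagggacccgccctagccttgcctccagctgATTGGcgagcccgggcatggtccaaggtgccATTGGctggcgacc
Cyp51: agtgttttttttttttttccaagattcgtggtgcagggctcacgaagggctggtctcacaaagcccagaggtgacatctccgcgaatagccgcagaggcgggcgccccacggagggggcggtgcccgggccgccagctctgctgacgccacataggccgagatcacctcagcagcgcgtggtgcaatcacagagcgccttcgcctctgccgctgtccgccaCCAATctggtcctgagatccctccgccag
Abca1: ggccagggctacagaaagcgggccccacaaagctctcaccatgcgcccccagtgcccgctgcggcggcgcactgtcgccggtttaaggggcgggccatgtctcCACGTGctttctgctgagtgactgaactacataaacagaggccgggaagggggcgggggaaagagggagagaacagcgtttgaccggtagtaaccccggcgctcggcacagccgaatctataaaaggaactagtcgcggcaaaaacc
A match is a description of letters and not of binding, and a site spelled otherwise stays in lower case.

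Library totals ran from 8626701 to 21234053 counts. The summed level of 8 eosinophil markers lay between 4621 and 6840 CPM (counts scaled to a common library size with trimmed-mean factors) over the 12 libraries, so the labelled cell type was present in each. Lavages 1 and 2 stood apart from the other 4 and lay close to each other: the chi-square per gene between their libraries was 5.26 in TREM-1- and 6.88 in TREM-1+, where all other pairs of lavages gave 20.6 or more and counting noise alone would give 1. Whether they are independent pools is not stated, so results are also given with both summed into 1 lavage.

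The difference between lavages was the main feature of this pathway. Over the 12 libraries the enzymes of cholesterol synthesis were read at 1.03 CPM (Mvk) to 117 CPM (Cyp51). For most of these enzymes the libraries of lavages 1 and 2 held the most, and they held the least of Abca1 and Mylip. In the other enzymes, such as Mvd and Pmvk, the lavages overlapped. Of the 27 genes that passed the filter on low counts, 23 differed among the 6 lavages (edgeR quasi-likelihood test, adjusted p below 0.05, with the 2 fractions of a lavage as its replicates), against 36.9% of all genes tested. Each lavage is a single pool and its fractions come from the same fluid, so these p-values set single pools against the spread within a pool and say nothing of how pools of a kind would vary. Among the SREBP-type genes it was 17 of 19. The fold between the highest and the lowest lavage had a median of 2.64 in the SREBP-type genes and of 1.63 in all genes tested. In 12 of the 19 SREBP-type genes all 4 libraries of lavages 1 and 2 lay above all 8 others, against 8.07% of all genes tested, and in 0 they lay below. In 2 of the 3 LXR-type genes, Abca1 and Mylip, they lay below all 8 others, against 6.57% of all genes tested. These counts describe a split that was seen in the data and that no label explains.

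**Figure D1:**
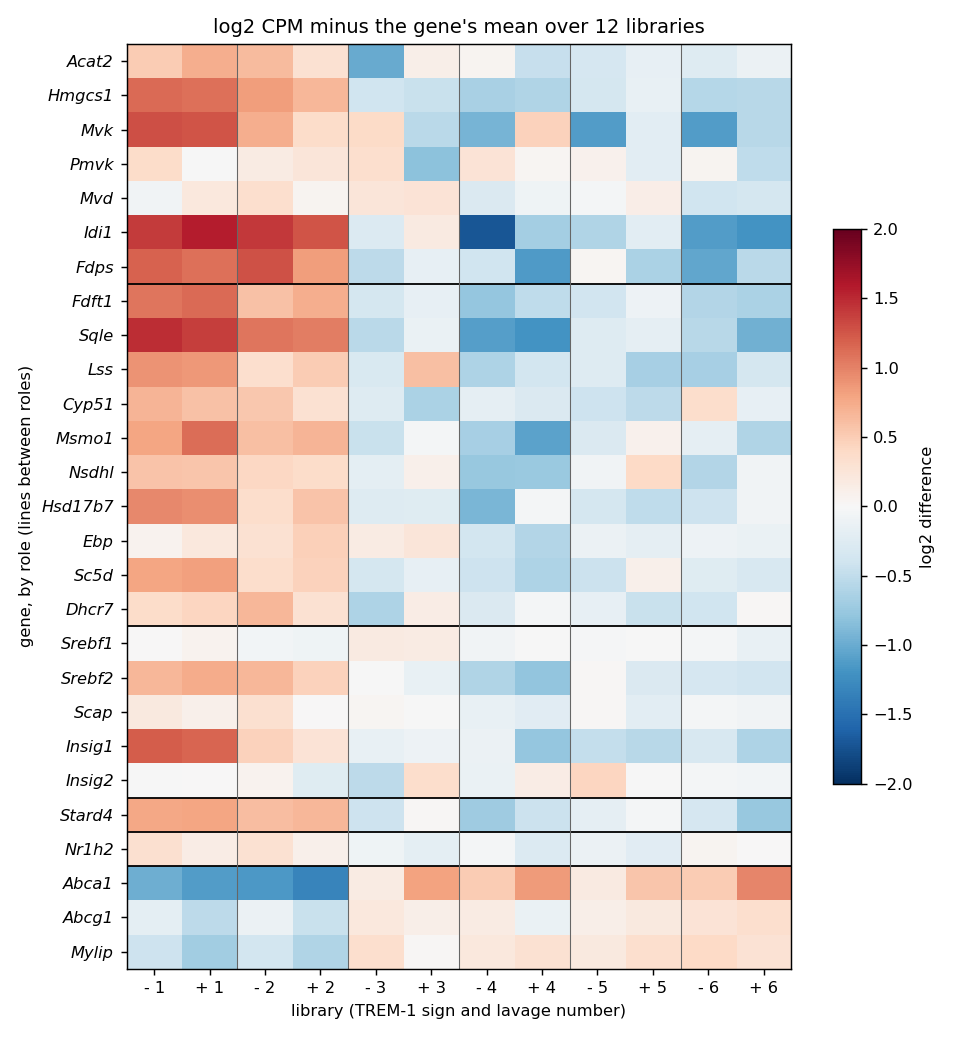
Heat map of log2 CPM of the 27 tested genes in 12 libraries, each row as the difference from its mean over the libraries (colour scale, log2 units); columns pair the TREM-1- and TREM-1+ library of lavages 1 to 6, and lines separate roles. The 4 columns of lavages 1 and 2 are red for most enzymes and blue for Abca1 and Mylip.

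The first steps lead from acetyl-CoA to farnesyl pyrophosphate. Hmgcs1, which encodes HMG-CoA synthase, was read in lavages 1 to 6 at 116, 94.7, 40.3, 33.8, 41.7 and 36.0 CPM in the TREM-1- fraction, against 115, 84.0, 39.1, 35.0, 48.0 and 36.1 CPM in TREM-1+ eosinophils. Its 4 libraries of lavages 1 and 2 lay at 84.0 CPM or more, and the 8 others did not exceed 48.0 CPM. Lavage took up 99.3% of the variance of its log2 CPM, against a median of 65.1% in all genes tested. The difference among lavages had an edgeR adjusted p of 8.64e-17. Idi1, whose product isomerizes the basic isoprenoid unit, showed the widest range of the tested genes, 6.38-fold between lavages 1 and 4. It held 24.8, 24.9, 7.73, 2.83, 6.13 and 4.298 CPM in the TREM-1- fraction, against 27.9, 22.5, 10.6, 5.85, 8.09 and 4.06 CPM in TREM-1+ libraries. Here too lavages 1 and 2 did not overlap with the others (adjusted p = 1.29e-12). Fdps, for farnesyl pyrophosphate synthase, ranged 3.82-fold (2.16 to 11.6 CPM, adjusted p = 5.11e-07) and Acat2, for the cytosolic thiolase that starts the pathway, 2.10-fold (2.23 to 7.60 CPM, adjusted p = 0.0340). Mvk, the mevalonate kinase gene, was the lowest of the tested genes at 1.03 to 5.69 CPM, and its lavages overlapped although their difference passed the test (adjusted p = 0.00161). The enzymes that follow it were the exceptions: Pmvk (phosphomevalonate kinase, adjusted p = 0.352) and Mvd (mevalonate decarboxylase, adjusted p = 0.0596) were not called, with ranges of 1.37-fold and 1.56-fold.

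All 10 enzymes from squalene onward among the 28 genes differed among lavages, against 36.9% of all genes tested. Sqle, for squalene epoxidase, was the most variable of them, 5.95-fold between lavages 1 and 4 (adjusted p = 5.31e-13). Its levels in lavages 1 to 6 were 34.3, 25.9, 8.49, 5.73, 10.3 and 8.35 CPM in the TREM-1- fraction, against 32.1, 25.1, 11.3, 5.34, 10.8 and 6.29 CPM in TREM-1+ eosinophils. The smallest value of lavages 1 and 2 was thus more than any value of the others. Fdft1 (squalene synthase, 3.33-fold), Msmo1 (methylsterol monooxygenase, 3.53-fold), Sc5d (sterol C5-desaturase, 2.48-fold), Hsd17b7 (a sterol ketoreductase, 2.67-fold) and Dhcr7 (the reductase of the last step, 1.73-fold) showed the same non-overlap, with adjusted p from 1.77e-11 for Fdft1 to 0.0143 for Dhcr7. In Lss (lanosterol synthase), Nsdhl (a sterol dehydrogenase), Ebp (a sterol isomerase) and Cyp51 (lanosterol demethylase) at least 1 library of another lavage reached into the range of lavages 1 and 2. Lss, for example, held 16.9 CPM in the TREM-1+ library of lavage 3, between the 14.1 and 20.8 CPM that bounded lavages 1 and 2. Ebp shifted less, with 15.1 to 26.7 CPM in lavages 3 to 6 and 23.65 to 31.5 CPM in lavages 1 and 2. Stard4, which encodes a carrier of cholesterol between membranes, went with the enzymes (18.8 to 32.4 CPM in lavages 3 to 6, 48.8 to 55.2 CPM in lavages 1 and 2, adjusted p = 1.24e-09). By lavage mean, 15 of the 19 SREBP-type genes were highest in lavage 1, 3 in lavage 2 and 1, Mvd, in lavage 3, and 10 were lowest in lavage 4.

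**Figure D2:**
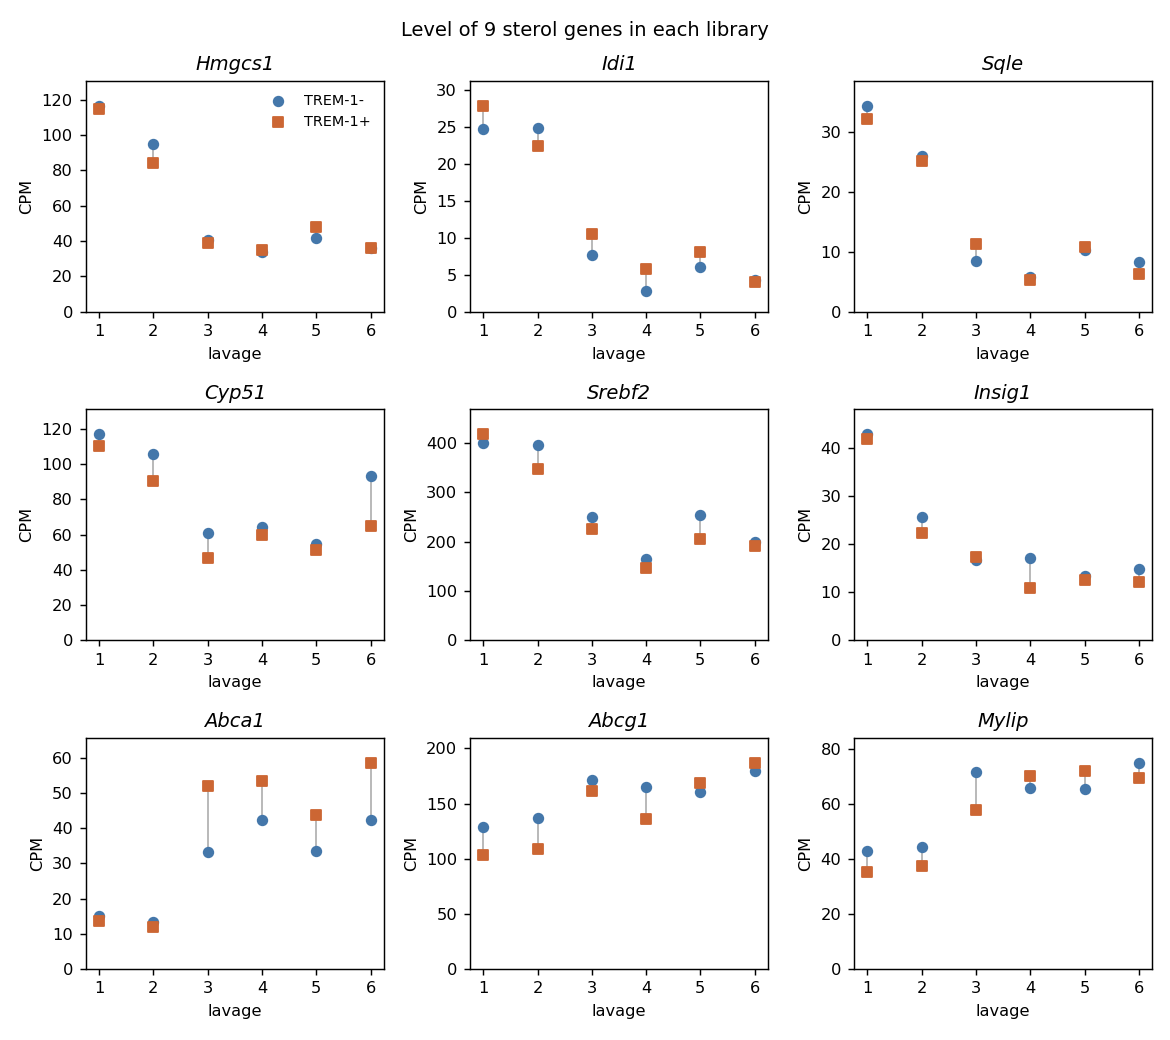
CPM of 9 genes by lavage (x axis, 1 to 6), with circles for TREM-1- and squares for TREM-1+ libraries and a grey line joining the pair; each y axis starts at 0. Hmgcs1, Idi1, Sqle, Srebf2 and Insig1 are highest in lavages 1 and 2 and Abca1 and Mylip lowest there, while the pairs of Abca1 lie apart in lavages 3 to 6.

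The regulators did not move as 1 group. Srebf2, which encodes the SREBP isoform that favours cholesterol genes, was the most abundant of the 28 genes per kilobase of transcript (52.5 CPM per kb over all libraries) and followed the enzymes. From lavage 1 to lavage 6 it held 399.8, 397, 251, 165, 255 and 199.7 CPM in the TREM-1- fraction, against 418, 347, 225, 146, 205 and 192 CPM in TREM-1+ eosinophils, a range of 2.64-fold between lavages (adjusted p = 3.22e-16). Insig1, itself a target of SREBP, held 42.8, 25.7, 16.7, 17.1, 13.3 and 14.9 CPM in the TREM-1- fraction, against 41.8, 22.4, 17.2, 10.8, 12.6 and 12.1 CPM in TREM-1+ (adjusted p = 9.61e-11). Both genes were above all other lavages in lavages 1 and 2. Srebf1, which encodes the isoforms tied to fatty acid genes and is itself an LXR target in many cells, was nearly level at 58.3 to 73.4 CPM and was not called (1.21-fold range, adjusted p = 0.100). Insig2, the isoform that is not driven by SREBP, was not called either (10.5 to 20.5 CPM, adjusted p = 0.803). Scap was abundant (37.5 CPM per kb) and differed by 1.27-fold among lavages (adjusted p = 0.000493), with overlap.

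Of the 3 LXR-type genes, 2 were separated in the opposite direction to the enzymes. Abca1, which encodes the exporter that loads cholesterol onto apolipoproteins, held 15.04, 13.4, 33.3, 42.3, 33.7 and 42.4 CPM in TREM-1- libraries of lavages 1 to 6. In TREM-1+ libraries it held 13.6, 11.9, 52.2, 53.4, 43.8 and 58.7 CPM. Every library of lavages 3 to 6 thus had at least 33.3 CPM and none of lavages 1 and 2 more than 15.04 CPM (adjusted p among lavages 1.58e-10). Mylip lay at 35.2 to 44.4 CPM in lavages 1 and 2 and at 58.0 to 75.1 CPM in the others (adjusted p = 6.95e-09). Abcg1, which exports cholesterol to lipoprotein particles, was the most abundant of the 3 per kilobase (25.8 CPM per kb against 19.3 for Mylip and 3.36 for Abca1). It held 129, 136, 171, 165, 161 and 179.9 CPM in the TREM-1- fraction, against 103, 109, 161, 136, 169 and 187 CPM in TREM-1+ libraries, where the ranges overlapped narrowly, at 136 CPM (adjusted p = 7.66e-06). Of the receptors, Nr1h2 (LXRβ) was abundant, at 36.4 CPM per kb, and was higher in lavages 1 and 2 (77.6 to 89.9 CPM) than in the others (59.8 to 75.2 CPM, adjusted p = 7.79e-05). In a list of other LXR targets and partners, lavages 1 and 2 were below all others in 1 of 9 tested genes, Eepd1 (113 to 119 against 122 to 143 CPM). They were above in 2, Rxra (367 to 450.02 against 246 to 328 CPM) and Ugcg (64.8 to 72.8 against 51.5 to 63.7 CPM), and overlapped in 6. Over all genes tested, 6.57% lay below and 8.07% above. Nr1h3 (LXRα) had 3 to 14 counts in a library and did not pass the filter on low counts.

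On a common scale, the median SREBP-type gene lay 0.83 log2 units above its mean over all libraries in lavage 1 and 0.53 above it in lavage 2. In lavages 3, 4, 5 and 6 it lay at -0.20, -0.56, -0.24 and -0.46. The median LXR-type gene stood at -0.55, -0.48, 0.17, 0.25, 0.26 and 0.37 in the same order. The gap between them therefore ran from 1.38 in lavage 1 to -0.83 in lavage 6, and no lavage had both medians above 0 or both below. The LXR-type median rests on 3 genes, and in lavages 1, 2 and 4 it was the value of Mylip. It does not stand for the list of other LXR targets and partners, most of which overlapped. With lavages 1 and 2 falling apart from the rest, no correlation over lavages is given.

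**Figure D3:**
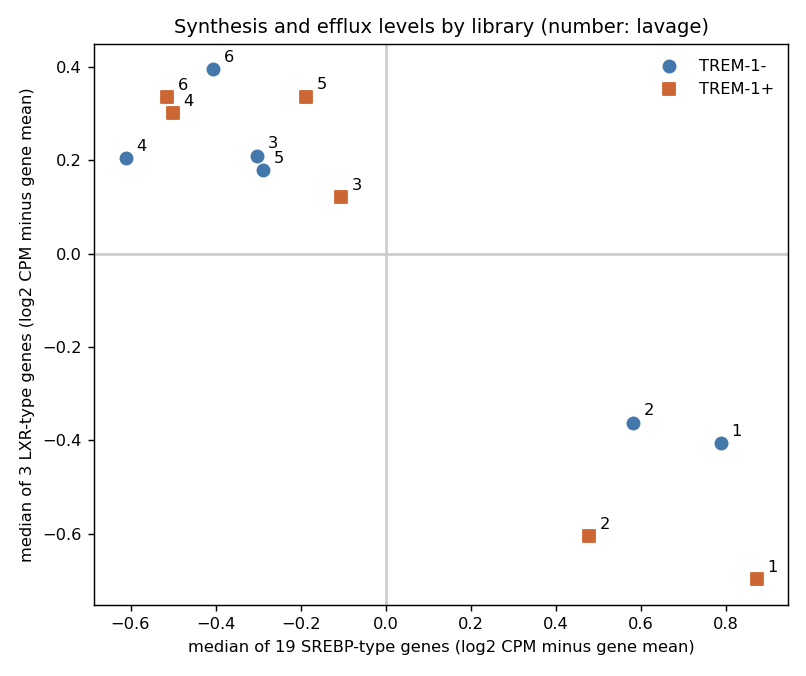
Median level of the 19 SREBP-type genes (x axis) against that of the 3 LXR-type genes (y axis) in each library, both as log2 CPM minus the gene's mean; circles are TREM-1-, squares TREM-1+ and numbers are lavages. The 4 libraries of lavages 1 and 2 lie at the lower right and the 8 others at the upper left.

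Transcripts of other cell types also differed between these lavages. The summed level of 9 T and innate lymphoid cell markers was 8.78 to 11.8 CPM in lavages 1 and 2 and 33.4 to 125 CPM in the others. In 8 of the 9, lavages 1 and 2 lay below with no overlap. Over all genes tested, 6.57% lay below in this way and 8.07% above. Of 10 monocyte and interstitial macrophage markers 7 were tested, of which 4 lay below the others in lavages 1 and 2, 1 above (Adgre1, 1062 to 1282 against 704 to 913 CPM) and 2 overlapped; the list's sum overlapped (1712 to 2164 against 1362 to 2235 CPM). Mrc1, a macrophage receptor, was at 0 to 1.03 CPM in lavages 1 and 2 and 2.18 to 23.6 CPM in the others. Of the 9 alveolar macrophage markers other than Abcg1, 4 were tested: Chil3 (2.86 to 32.3 against 79.5 to 573 CPM) and Plet1 lay below in lavages 1 and 2, and Car4 and Ear1 overlapped. The sum of these 9 overlapped too (445.7 to 506 against 378 to 990.1 CPM), and Marco, a defining one, averaged 0.0549 CPM without and 0.148 CPM with TREM-1. Summed eosinophil markers were 6667 to 6840 CPM in lavages 1 and 2 and 4621 to 6000.5 CPM in the others. Only 1 of the 8, Alox15 (2676 to 3200.3 against 1526 to 2627 CPM), was separated by itself, and 7 overlapped. The part of these cells in the sterol gene differences was not tested, and in bulk libraries fewer cells of a type and less RNA per cell cannot be told apart.

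In lavages 3 to 6 alone, 6 of the 27 genes differed among lavages (Idi1, Sqle, Cyp51, Ebp, Srebf2 and Abcg1), against 15.6% of all genes tested in that fit. With lavages 1 and 2 summed into 1 lavage 21 genes did, against 32.2% of all genes tested in that fit.

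Between the fractions of a lavage the same genes differed little. Of the 27 tested genes, 4 were called lower in TREM-1+ (14.8%, against 6.72% of all genes tested) and 1 higher (3.70%, against 3.10%), by the paired edgeR test over 18302 genes with lavage as a block. The 19 SREBP-type genes held 2 of the lower calls, Pmvk and Cyp51, and 0 higher ones, and their median log2 fold change (TREM-1+ minus TREM-1-) was 0.09, where the median of all genes was 0.00. The SREBP-type median was 0.02 without lavage 3 and -0.02 in lavages 1 and 2 alone. Scaling mattered for the balance of calls: 568 genes were higher and 1229 lower, but 1880 higher and 376 lower with library totals alone. None of the 27 genes changed by more than 0.5 on the log2 scale, and the 95% interval, which is not adjusted for the number of genes, stayed within a 2-fold change either way in all 27. Lavage took up a median of 90.7% of the variance of log2 CPM in the SREBP-type genes, against 65.1% in all genes tested. Pmvk was an exception, with 30.6% for lavage and 38.7% for the fraction.

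Cyp51, the lanosterol demethylase gene, had the clearest change of a synthesis gene. In lavages 1 to 6 the TREM-1- level was 117, 106, 60.7, 64.1, 54.4 and 92.9 CPM, and the TREM-1+ level was 110.0, 90.3, 46.9, 59.9, 50.9 and 65.1 CPM. It was lower in TREM-1+ in 6 of 6 pairs, by 0.09 to 0.51 log2 units, although the fractions overlapped widely across lavages. Its fitted change was -0.23 ± 0.05 log2 units (SE, edgeR adjusted p = 0.00380). Flipping the signs of the 6 differences in an exact permutation test (two-sided) gave p = 0.0312, the smallest possible here. The call was lost without lavage 6 (-0.17, adjusted p = 0.0631), in lavages 1 and 2 alone (-0.14, adjusted p = 0.177) and with library totals in place of trimmed-mean factors (-0.11, adjusted p = 0.309). Pmvk, the phosphomevalonate kinase gene, held 14.0, 12.1, 13.6, 13.0, 11.5 and 11.3 CPM in the TREM-1- fraction, against 10.7, 12.9, 6.11, 11.1, 9.30 and 7.55 CPM in TREM-1+ libraries. It was lower in 5 of 6 pairs, with lavage 2 the exception (log2 fold change -0.41 ± 0.13, SE, edgeR adjusted p = 0.0389). Lavage 3 gave the largest difference, and without it the change was -0.28 (adjusted p = 0.186). Its call was also lost without lavage 1, 4, 5 or 6 (adjusted p from 0.0621 to 0.136), in lavages 1 and 2 alone (-0.13, adjusted p = 0.746), without lavages 3 and 4 (-0.29, adjusted p = 0.247) and with library totals alone (-0.29, adjusted p = 0.168). The same exact permutation test (two-sided) gave p = 0.0625 for Pmvk, 0.0312 for Scap, 0.0938 for Srebf2 and 0.125 for Abca1. Of these other called genes only Scap fell below 0.05 in the exact permutation test.

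Other enzymes did not pass the edgeR test, and the 95% interval of each included 0. Hmgcs1 was the best determined, with a log2 fold change of 0.00 and a 95% interval from -0.12 to 0.11, and Sqle stood at -0.02 (-0.24 to 0.20). Idi1 had the largest positive value, 0.25 (-0.01 to 0.51, edgeR adjusted p = 0.287), and was higher in 4 of 6 pairs. Fdft1 had 0.15 (-0.04 to 0.33) and was higher in 5 of 6 pairs. Mvk, the gene with the fewest counts of those tested, had the widest interval, 0.19 (-0.36 to 0.74).

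The regulators Srebf2 and Scap were called lower by small amounts. Srebf2, whose values by library are given above, was lower in TREM-1+ in 5 of 6 pairs, all but lavage 1, with a log2 fold change of -0.14 ± 0.04 (SE, edgeR adjusted p = 0.0217). Scap held 181, 197, 162, 142, 160.2 and 154 CPM in the TREM-1- fraction, against 169, 159, 156, 135, 136 and 149.7 CPM in TREM-1+ libraries. It was lower in 6 of 6 pairs (-0.13 ± 0.04, SE, edgeR adjusted p = 0.0289). Neither call held with library totals alone, where the median of all genes moved by 0.13 (Srebf2 -0.01, adjusted p = 0.917; Scap -0.01, adjusted p = 0.947). The call of Srebf2 was also lost without lavage 2, 4 or 5, in lavages 1 and 2 alone (-0.04) and without lavages 3 and 4 (adjusted p from 0.0806 to 0.710), and that of Scap without lavage 1, 2 or 5, in lavages 3 to 6 alone and with lavages 1 and 2 summed (adjusted p from 0.0656 to 0.292). Insig1 (-0.19, 95% interval -0.38 to 0.00, lower in 5 of 6 pairs), Srebf1 (-0.01, -0.11 to 0.10) and Insig2 (0.06, -0.21 to 0.33) were not called.

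**Figure D4:**
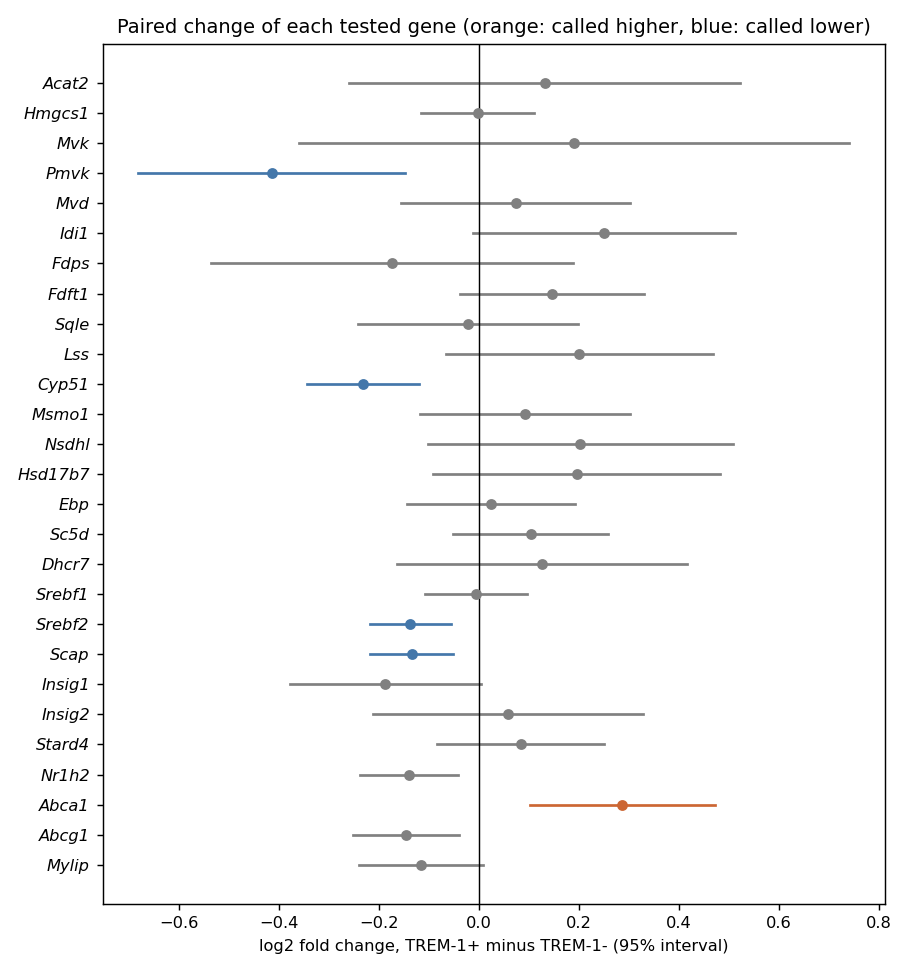
Log2 fold change of each of the 27 tested genes, TREM-1+ minus TREM-1- with lavage as a block (points, x axis), with the unadjusted 95% interval (lines); orange marks the gene called higher, blue the 4 called lower and grey the 22 not called. All points lie between -0.41 and 0.29.

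Abca1 was the gene called higher. The fitted change was 0.29 ± 0.09 log2 units (SE, edgeR adjusted p = 0.0414), and its values by library, given above, show 2 kinds of pair. In lavages 3 to 6 it was higher in TREM-1+ by 0.33 to 0.65 log2 units, and in lavages 1 and 2, where it was low, it was lower by 0.14 and 0.17; the difference between these effects was not tested. In lavages 1 and 2 alone the fold change was -0.14 (adjusted p = 0.717), and in lavages 3 to 6 alone 0.46 (edgeR adjusted p = 0.000229). The call was lost without lavage 3, 4, 5 or 6 (adjusted p from 0.133 to 0.182), without both lavages 3 and 4 (0.18, adjusted p = 0.394), with DESeq2 (adjusted p = 0.0586) and with limma on the deposited log2 CPM (adjusted p = 0.0969), and kept with limma-voom on the counts (0.35, adjusted p = 0.00254). Over all genes tested, 3.10% were called higher and 6.72% lower, and the counts of markers that follow stand beside these shares. Of the 7 monocyte and interstitial macrophage markers tested 3 were called higher and 2 lower. Mrc1 averaged 5.75 ± 7.11 CPM without and 12.2 ± 9.81 CPM with TREM-1 (SD, n = 6), higher in 6 of 6 pairs but not called (edgeR adjusted p = 0.0829), and the markers of T and innate lymphoid cells held 7 higher calls of 9. Neutrophil markers held 7 higher calls of 8 tested and 1 lower (median log2 fold change 0.91, with S100a8 at 2.35 and S100a9 at 1.45). The list's sum overlapped between the fractions (1545 to 2297 CPM without and 1332 to 2225 CPM with TREM-1). It was carried mainly by Retnlg, the marker called lower, which averaged 1603 CPM without and 1244 CPM with TREM-1. Of the 8 eosinophil markers 5 were called lower and 2 higher. The part of these cells in the value of Abca1 and in the other changes between fractions was not tested. Abcg1 (-0.15, 95% interval -0.25 to -0.04, edgeR adjusted p = 0.0836) and Mylip (-0.12, -0.24 to 0.01, adjusted p = 0.296) were not called. In lavages 1 and 2 alone Abcg1 was called lower (-0.30, adjusted p = 7.00e-06), as was Mylip (-0.25, adjusted p = 0.0494). Abcg1 was also called lower without lavage 5 (-0.19, adjusted p = 0.0165), without lavage 6 (-0.18, adjusted p = 0.0296) and with no filter on low counts (-0.14, adjusted p = 0.0142). Nr1h2 was lower in 6 of 6 pairs by 0.04 to 0.23 log2 units and was not called (-0.14 ± 0.05, SE, edgeR adjusted p = 0.0623).

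Neighbouring pathways were read from lists of their own. Of 12 other isoprenoid and sterol enzymes, 0 were called in either direction (median log2 fold change 0.05), where 3.10% of all genes tested were higher and 6.72% lower. Lbr, for a nuclear envelope protein that doubles as a sterol reductase, lay at 212 to 230.4 CPM in lavages 1 and 2 and at 158 to 195 CPM in the others, with no overlap. Of 16 genes of SREBP cleavage and sterol-dependent protein turnover, 1, Fbxw7 for a ubiquitin ligase subunit that acts on nuclear SREBP, was called lower (-0.25 ± 0.05, SE) and 0 higher. Its call was lost with library totals alone (-0.12, edgeR adjusted p = 0.205) and in lavages 1 and 2 alone (-0.13, adjusted p = 0.302).

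Fatty acid genes, the branch served by SREBP-1, went both ways: of 14 tested, 2 were higher and 1 lower. Over all genes tested, 3.10% were higher and 6.72% lower. Acly, which makes the acetyl-CoA used by both branches, fell from 326 ± 54.7 to 267 ± 37.9 CPM (SD, n = 6; log2 fold change -0.28 ± 0.04, SE, edgeR adjusted p = 5.67e-07, lower in 6 of 6 pairs). With library totals alone its change was -0.16. Lpin1, for a phosphatidate phosphatase, rose by 0.20 ± 0.04 (SE; 0.33 with library totals alone), and Acaca, for the enzyme that makes malonyl-CoA, by 0.31 ± 0.09 (SE, edgeR adjusted p = 0.0349). The call of Acaca was lost without lavage 1, 3, 4 or 5 (adjusted p from 0.0562 to 0.146), in lavages 1 and 2 alone (0.12) and without lavages 3 and 4 (0.12).

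Among 9 tested genes of the list of other LXR targets and partners, 4 were lower and 0 higher, with a median of -0.13. Over all genes tested, 6.72% were lower and 3.10% higher. Arl4c, for a small GTPase tied to cholesterol export, fell from 305 ± 35.2 to 249 ± 40.9 CPM (SD, n = 6; -0.30 ± 0.04, SE, edgeR adjusted p = 1.19e-06) and Lpcat3, for a phospholipid-remodelling enzyme, from 365 ± 23.7 to 301 ± 31.1 CPM (-0.28 ± 0.04, SE, adjusted p = 8.65e-06). Both fell in 6 of 6 pairs. Scaled by library totals alone, they changed by -0.17 and -0.15 (adjusted p = 0.0164 and 0.0219). Smpdl3a (-0.25 ± 0.05, SE) and Rxra (-0.13 ± 0.03, SE), the gene for the partner receptor of LXR, were also lower, but not with library totals alone (adjusted p = 0.132 and 0.989); Rxra was not called without lavage 1, 2 or 4 or in lavages 3 to 6 alone either (adjusted p from 0.0554 to 0.195). With library totals alone 2 of the 9 were lower and 0 higher, against 376 lower and 1880 higher of all 18302 genes tested.

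Genes of sterol uptake, lysosomal release and storage were split, with 1 of 20 higher and 3 lower. Over all genes tested, 3.10% were higher and 6.72% lower. Lipa, for the lysosomal acid lipase that frees cholesterol from its esters, rose from 32.4 ± 5.14 to 38.7 ± 6.46 CPM (SD, n = 6; 0.25 ± 0.07, SE, edgeR adjusted p = 0.0151), a call lost without lavage 1, 4 or 5 (adjusted p from 0.0566 to 0.0894), in lavages 1 and 2 alone (adjusted p = 0.0785) and in lavages 3 to 6 alone (adjusted p = 0.0959). Gramd1a, for a sterol carrier between the plasma membrane and the endoplasmic reticulum, fell by 0.32 ± 0.05 on the log2 scale (SE), Stard3, for a late endosomal sterol carrier, fell by 0.27 ± 0.07, and Npc2, for a lysosomal cholesterol-binding protein, fell by 0.22 ± 0.04. Gramd1a was called with library totals alone (-0.19, edgeR adjusted p = 0.0334), while Stard3 (adjusted p = 0.263) and Npc2 (adjusted p = 0.205) were not. Under that scaling 6 of the 20 were higher and 1 lower, against 1880 higher and 376 lower of all 18302 genes tested. Stard3 was not called without lavage 5 (adjusted p = 0.0538), in lavages 1 and 2 alone (adjusted p = 0.112) or in lavages 3 to 6 alone (adjusted p = 0.0564).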

How the data were processed

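RNA of 12 sorted eosinophil libraries (6 lavages, 2 fractions) was ribosome-depleted, made into stranded libraries and sequenced in 1 lane, per the labels' protocols. The authors deposited estimated counts per gene, which are whole numbers, and log2 CPM for 17934 genes. Tools listed in the submitters' processing notes, with no roles, are edgeR 3.42.4, kallisto 0.45.0 and R 4.3.0, and the build is GRCm39. The sources used here give neither annotation nor strand setting, and overlapping genes may share reads. The deposited log2 CPM were matched to within 5e-09 by recomputing them with TMM factors and a prior count of 1.

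Estimated counts were rounded, which changed none, and tested in R 4.3.3 using edgeR 4.0.16 (filterByExpr at its defaults of count 10 and total 15, TMM factors, robust quasi-likelihood F test, Benjamini-Hochberg over 18302 genes, threshold 0.05). The fraction was tested with lavage as a block, since the series' design text says that both fractions of a lavage came from the same fluid; after removing group means, the correlation of partners was 0.13 to 0.50, and in 5 of 6 lavages the own partner correlated best; in lavage 3 (0.127) the best was of lavage 5. Differences among lavages were tested on the 5 lavage terms. SE come from the F statistic, and 95% intervals use its degrees of freedom. The log2 CPM used for pair differences have a prior count of 1. CPM per kb used the longest GENCODE vM21 transcript of each gene. Alternatives used limma 3.58.1 and DESeq2 1.42.0, and scripts were tested on simulated data. Separate groups of mice for the 6 lavages are not stated, so p-values of the fraction test cover only the spread among these pools, and those of the lavage test only the spread within them. Total counts of 8626701 to 21234053 per library limit precision for genes of few counts.

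Members and gene lists were chosen with earlier results of these data known. Named are all members where a result turns on them and up to 4 called genes per other list, those with the largest absolute change. The number of sample columns not used was 0.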

Additional observations from a re-analysis of the deposited data

Results flagged for a closer look

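In 56 groups of 6 libraries (28 genes in 2 fractions) 3 held a library far from the other 5 by Dixon's criterion, where chance flags about 1 group in 20. Srebf1 was at 73.4 CPM in the TREM-1- library of lavage 3, with the others at 61.6 to 65.3 CPM. Insig1 was at 41.8 CPM in the TREM-1+ library of lavage 1, with the others at 10.8 to 22.4 CPM. Nr1h3 was at 1.44 CPM in the TREM-1+ library of lavage 4, the library of the lowest total, with the others at 0.191 to 0.572 CPM; this is 14 counts.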

How the results depend on the processing

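Counts of genes that differed among lavages stayed within 1.5 times the reported one: 20 to 24 were called when 1 lavage at a time was left out and under each other alternative that kept lavages 1 and 2 in the fit, where 27.0% to 39.8% of all genes were called, but lavages 3 to 6 alone gave 6. The count of SREBP-type genes with lavages 1 and 2 on top, checked under 3 other scalings and on the deposited log2 CPM as settings chosen after seeing the data, stayed within 1.5 times the reported one. Calls between the fractions were fragile. Without the replicate block 27 of all genes tested were higher and 56 lower, against 568 and 1229 with it. Of the 27 tested genes of this pathway 0 were higher and 0 lower, SREBP-type genes included. With library totals alone 0 were lower, SREBP-type genes included, and the median of SREBP-type genes became 0.21; Abca1 stayed called. DESeq2 and limma on the deposited log2 CPM each called 0 higher. Leaving out 1 lavage at a time gave 0 to 1 higher and 2 to 3 lower, with 0 to 2 SREBP-type genes lower (404 to 474 higher and 981 to 1137 lower over all genes). Lavages 1 and 2 alone gave 0 higher and 3 lower, 0 of them SREBP-type (425 and 1142 over all genes). The median of SREBP-type genes was -0.018 there. Without lavages 3 and 4, 0 were higher and 2 lower, 1 of them SREBP-type (347 and 944 over all genes). Signs reversed in genes near 0 that were not called: Srebf1 with library totals (0.12), without lavage 2 (0.00014) or 6 (0.022; -0.016 to 0.022 over the lavages left out) and in lavages 1 and 2 alone (0.031), and Mylip with library totals (0.0097). Abca1 reversed in lavages 1 and 2 alone (-0.14). The cause of these changes was not tested, beyond the fewer libraries of the smaller fits. Depth limits Nr1h3 and Mvk most.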
